A study of Mus musculus with 19 samples.

Results

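The 10 genes described here encode the pore-forming subunits of the AMPA-type glutamate receptor (Gria1 to Gria4) and the transmembrane AMPA receptor regulatory proteins, or TARPs (Cacng2, Cacng3, Cacng4, Cacng5, Cacng7 and Cacng8). They were taken by symbol from tables of 20436 genes, and all 10 passed the filter on low counts in both kinds of library. RNA-seq, which measures the level of each transcript, and ribosome profiling, which counts the ribosome-protected fragments (RPFs) left on coding sequence, were performed on hippocampal slices of wild-type male mice aged 28 to 42 days. Slices received 100 µM DHPG, an agonist of group I metabotropic glutamate receptors (mGluRs), or vehicle (ACSF, called basal) for 5 min, and all slices then received 100 µg/ml cycloheximide, which halts ribosomes. The groups held 4 basal RNA, 5 DHPG RNA, 5 basal RPF and 5 DHPG RPF libraries, each from pooled slices of several mice. Libraries of the same replicate number were taken as a batch. The sample titles give only the number, so whether basal and DHPG pools shared mice is not known. No genotype other than wild type was used here. The slices are whole tissue, so fewer cells of a type and less RNA per cell cannot be told apart in any level below.

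AMPA receptors are tetramers of GluA1 to GluA4 and carry most fast excitatory transmission. GluA2, the product of Gria2, is edited at the RNA level in the pore and makes receptors that hold it nearly impermeable to calcium. TARPs bind the receptor, and several of them bring it to the cell surface and the synapse and slow its closing. Cacng2 (stargazin, γ-2), Cacng3 (γ-3), Cacng4 (γ-4) and Cacng8 (γ-8, the TARP best known from hippocampus) form the type I group, and Cacng5 (γ-5) and Cacng7 (γ-7) the type II group. In hippocampal long-term depression triggered by group I mGluRs, AMPA receptors are removed from the synapse, which is why their genes are of interest beside DHPG.

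Reads of related genes are confused most readily where the genes share an exact stretch as long as a footprint. The 2 longest runs shared by subunit genes are shown because they are long enough to hold a window of 28 nt, about a footprint, and the longest run shared by TARP genes because it is too short to do so. They are written 5′ to 3′ on the coding strand from the GRCm38 transcripts, in lower case throughout with no base singled out.
Gria2 and Gria4: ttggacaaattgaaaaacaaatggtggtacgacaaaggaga
Gria1 and Gria3: agcctgagcaatgtggcaggcgtgttcta
Cacng5 and Cacng7: atcgcggtcagcacggactactggct
The run of Gria2 and Gria4 is 41 nt long and starts at base 2338 of the Gria2 coding sequence, that of Gria1 and Gria3 is 29 nt long and starts at base 2404 of the Gria1 coding sequence, and that of Cacng5 and Cacng7 is 26 nt long. Of all windows of 28 nt, 14 of 2565 in Gria2 (0.546%) and 14 of 2622 in Gria4 (0.534%) also occur in another member, against 2 of 2637 in Gria1 and 2 of 2580 in Gria3. No window of a TARP does, so the Cacng coding sequences compared share no exact read of that length. Footprints shorter than 28 nt and reads with mismatches were not examined. On GRCm38, Cacng7 (chromosome 7, 3332955 to 3368221, plus strand) and Cacng8 (chromosome 7, 3390683 to 3415648, plus strand) are neighbours 22461 bp apart. Cacng4 (chromosome 11, 107732357 to 107794557) and Cacng5 (chromosome 11, 107874605 to 107915055) lie 80047 bp apart on the minus strand.

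In basal slices, ribosome footprints were densest on Gria2, Gria1 and Cacng8. Levels are compared between genes as CPM per kb (counts scaled to the library total with TMM factors and divided by length), over the whole transcript for RNA and over the coding sequence less the trimmed ends for RPF. The footprint level of Gria2 was 445 ± 58.3 CPM per kb (SD, n = 5), with 439, 506, 502, 382 and 395 in replicates 1 to 5. Gria1, whose product pairs with GluA2 in most hippocampal receptors, had 358 ± 33.7, with 346, 393, 394, 326 and 329. Gria2 exceeded Gria1 in 5 of 5 replicates, although the ranges of the genes overlapped because replicates 4 and 5 were low for both. Gria3 followed with 135 ± 20.5 and Gria4, the subunit typical of interneurons and of early development, with 28.6 ± 4.41 CPM per kb.

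**Figure D1:**
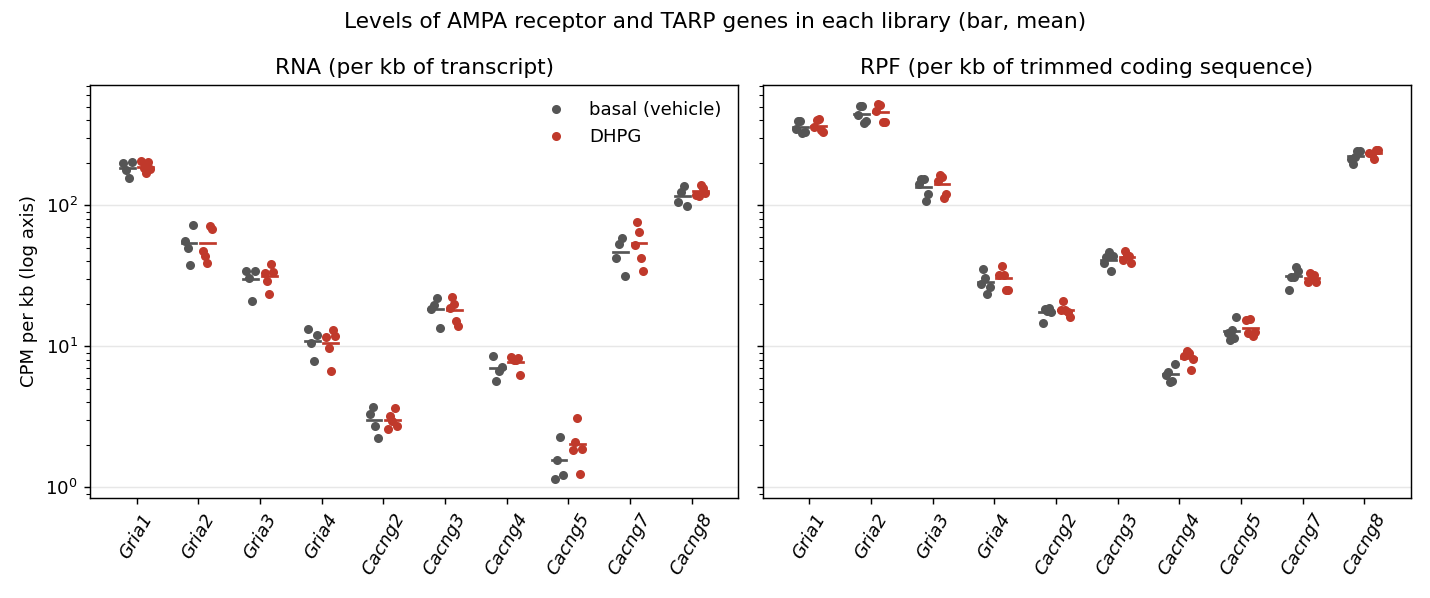
Levels of the 10 genes in each library, as CPM per kb on a log axis, for RNA (left) and RPF (right), with basal libraries in grey, DHPG libraries in red and bars at the means. In RPF, Gria2 and Gria1 lie highest and Cacng4 lowest, and in no gene do the basal and DHPG libraries separate.

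Among the TARPs, Cacng8 had 222 ± 19.9 CPM per kb of RPF, which placed it between Gria1 and Gria3. Cacng3 (41.3 ± 4.83), Cacng7 (31.6 ± 4.27), Cacng2 (17.4 ± 1.64), Cacng5 (12.9 ± 1.99) and Cacng4 (6.32 ± 0.770) followed. Cacng3 and Cacng7, Cacng7 and Gria4, and Cacng2 and Cacng5 were neighbours in the order whose ranges overlapped, and Cacng7 exceeded Gria4 in only 3 of 5 replicates. All other neighbours from Gria1 down were separated in every replicate, but 5 replicates cannot give a two-sided exact p below 0.0625. Against the 12685 genes with a length, Gria2 ranked 376th in RPF, Gria1 508th, Cacng8 862nd and Cacng4 9273rd.

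The order in RNA was different. Gria1 had the highest RNA level, 184 ± 22.1 CPM per kb (SD, n = 4), followed by Cacng8 with 116 ± 17.9 and Gria2 with 53.8 ± 14.5. Cacng7 stood next with 46.3 ± 12.0, ahead of Gria3 (29.96 ± 6.19), Cacng3 (18.4 ± 3.65), Gria4 (10.9 ± 2.32), Cacng4 (7.05 ± 1.197), Cacng2 (2.999 ± 0.647) and Cacng5 (1.55 ± 0.523). The ranges of Gria2, Cacng7, Gria3 and Cacng3 overlapped from each to the next, and Gria2 exceeded Cacng7 in 2 of 4 replicates. The ranges of Gria4 and Cacng4 and of Cacng2 and Cacng5 overlapped as well. Cacng5 was the sparsest of the members in RNA, with 26 to 55 counts in the basal libraries.

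These orders give the subunits different shares in the transcripts and in the footprints. Gria1 made up 66.4% ± 2.86 (SD, n = 4) of the summed RNA level of the 4 subunits and 37.1% ± 1.199 (n = 5) of their summed RPF level. For Gria2 the share was 19.04% ± 2.41 in RNA and 46.0% ± 0.544 in RPF. The RNA range of Gria2, 16.8 to 22.5%, and its RPF range, 45.4 to 46.5%, did not overlap, and those of Gria1 did not either. Gria1 RNA was 3.54 ± 0.558 times Gria2 RNA per kb, whereas Gria1 RPF was 0.807 ± 0.0347 times Gria2 RPF. Gria2 was counted against a transcript of 10371 nt, and with the median length over its coding transcripts, 7198.5 nt, its RNA share was 23.3% and that of Gria1 58.0%. Gria3 held 13.9% of the subunit RPF and Gria4 2.96%.

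Cacng8 held most of the TARP signal in both assays, 60.5% ± 2.29 of RNA and 67.0% ± 2.22 of RPF. Cacng7 held 23.8% ± 2.41 of the TARP RNA, ranging from 20.5 to 25.8%, and 9.50% ± 0.899 of the TARP RPF, ranging from 8.13 to 10.5%. Cacng3 took 9.53% of RNA and 12.5% of RPF, and Cacng2 took 1.57% and 5.27%. Summed over each group, there were 34.9 ± 6.23 TARP footprints per 100 AMPA subunit footprints, each per kb (28.1 to 41.7). In RNA the same figure was 71.8 ± 24.2, with a wider range of 47.8 to 103.2.

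**Figure D2:**
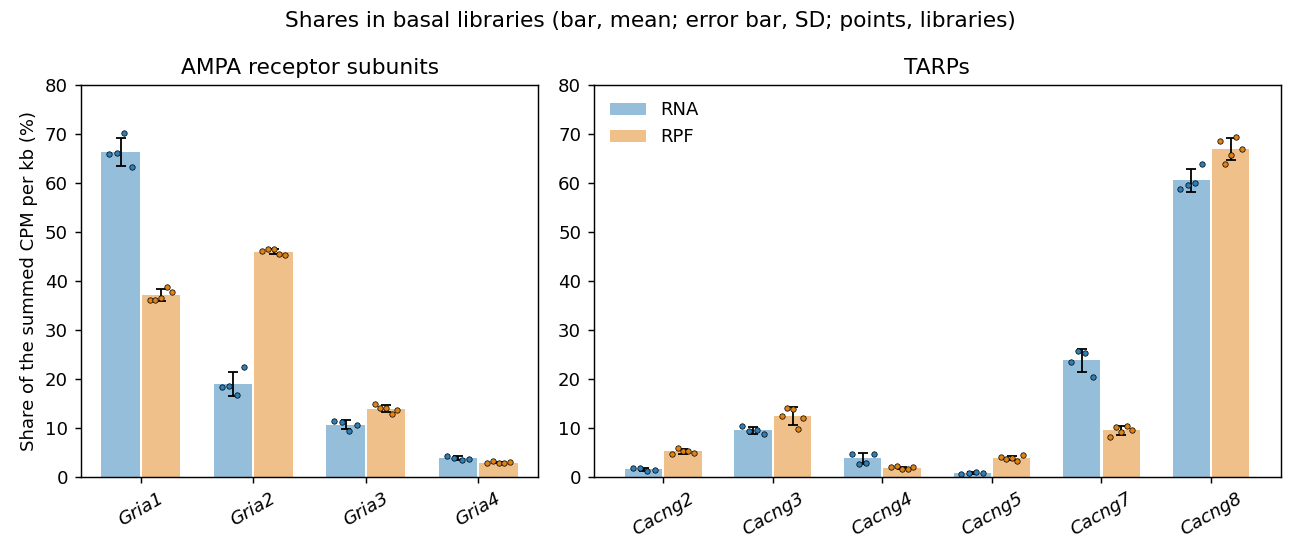
Share of each gene in the summed CPM per kb of its group in basal libraries, for AMPA receptor subunits (left) and TARPs (right), with bars at the mean of 4 RNA or 5 RPF libraries, error bars of 1 SD and a point for each library. Gria2 takes 19.04% of subunit RNA and 46.0% of subunit RPF, and Cacng7 takes 23.8% of TARP RNA and 9.50% of TARP RPF.

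The ratio of RPF to RNA, a measure of how heavily a transcript is occupied by ribosomes, was tested in the basal libraries of replicates 1 to 4, which had both assays. The ratio was computed per length and relative to the median gene, so that a log2 value of 0 is the median. Of the 10 members, 8 passed an adjusted p of 0.05 (edgeR's quasi-likelihood test, Benjamini-Hochberg), 6 above the median gene and 2 below it. Of the 12377 genes tested 78.8% passed, 39.4% above and 39.4% below, so passing says little about a member and the sizes matter more. The basal libraries also enter the comparison with DHPG on which the genes were selected. The adjusted p-values of members below are therefore descriptions, not independent tests. Gria2 had a high ratio, 2.25 ± 0.21 (SE; adjusted p = 1.14e-05), above 91.4% of genes. It was 1.28 with no length term and 1.76 with median transcript lengths. The order of the members depended on length, since Gria2 was the highest with the lengths used, Gria3 (1.39) with no length term and Cacng5 (2.13) with median lengths. Relative to the median gene Gria2 was at 2.14, 2.52, 2.87 and 1.56 in replicates 1 to 4. Replicate 4 was the lowest and replicate 3 the highest, and all lay far above 0.

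Gria3 had a ratio of 1.36 ± 0.19 (adjusted p = 0.000137) with a transcript of 5192 nt, but of 0.64 (adjusted p = 0.0106) with the median length of 3081 nt. Gria4 was at 0.57 ± 0.19 (adjusted p = 0.0203), and at 0.56 with its median length. Gria1 was near the median gene at 0.12 ± 0.14 (adjusted p = 0.432). The ratio of Gria2 exceeded that of Gria1 in 4 of 4 replicates, by a mean of 2.13 on the log2 scale (1.72 to 2.41), and by 1.19 (0.78 to 1.47) when no length entered. With 4 replicates the smallest two-sided exact p is 0.125.

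Cacng5 (2.101 ± 0.19; adjusted p = 1.11e-05) and Cacng2 (1.69 ± 0.18; adjusted p = 2.54e-05) lay above the median gene, and Cacng3 slightly above it at 0.29 ± 0.12 (adjusted p = 0.0447). Without a length term Cacng5 came to 0.86 (adjusted p = 0.00387), Cacng2 to 0.12 (adjusted p = 0.552) and Cacng3 to -0.33, then past the threshold below the median (adjusted p = 0.0322). The place of Cacng2 and Cacng3 above the median thus rests on their annotated transcript lengths of 5510 and 2777 nt. Cacng8 was at 0.050 ± 0.13 (adjusted p = 0.742).

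Cacng7 and Cacng4 were the members with fewer footprints than their RNA level would give for the median gene. Cacng7 had a ratio of -1.43 ± 0.19 (adjusted p = 0.000118), above that of only 15.4% of genes, and Cacng4 one of -1.07 ± 0.16 (adjusted p = 0.000274), which was -1.96 with no length term. For Cacng7 the values were -1.57, -1.61, -1.79 and -0.62 in replicates 1 to 4. All 4 were below 0, and replicate 4 stood well above the others. Without replicate 4 the ratio of Cacng7 was -1.68, and with no length term -1.93. In the DHPG libraries it was -1.63 ± 0.14. Cacng7 was selected in part on its difference between DHPG and basal libraries, which share replicate numbers. Its ratios in both groups of libraries are therefore descriptions only. Of the type II TARPs, Cacng5 exceeded Cacng7 in 4 of 4 replicates by 2.95 to 4.10 on the log2 scale, and by 2.21 to 3.35 when no length entered.

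**Figure D3:**
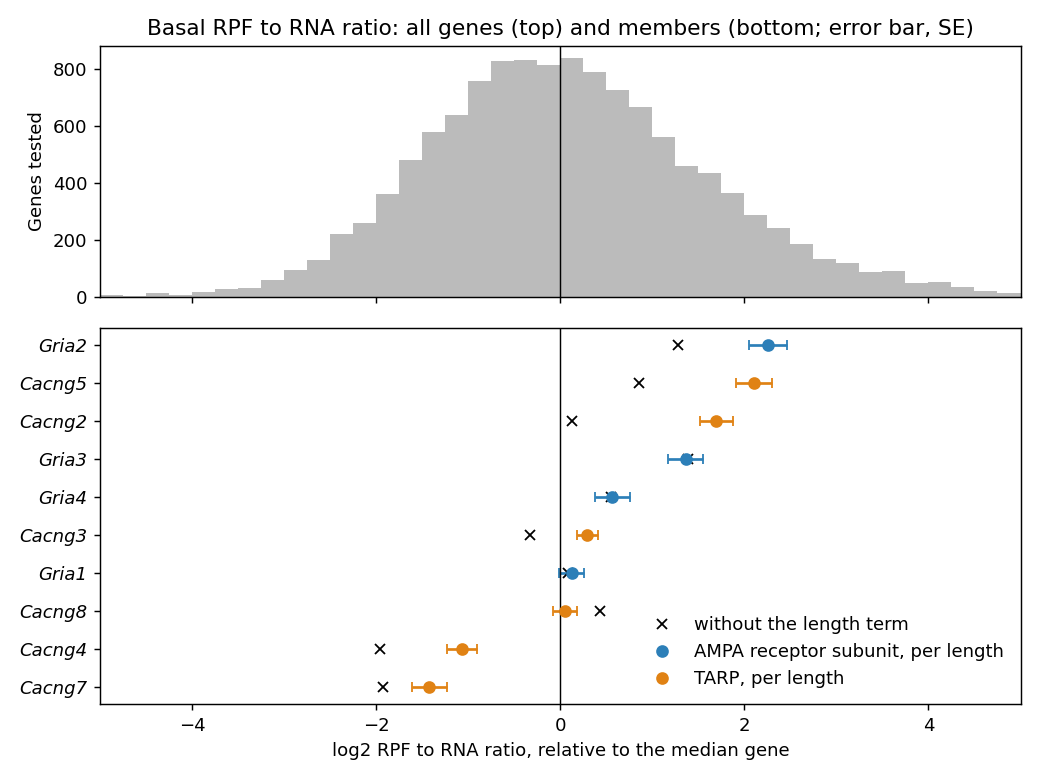
Basal RPF to RNA ratio on the log2 scale relative to the median gene, for the genes tested between -5 and 5 (top, number of genes per bin) and for the 10 members (bottom, circles with error bars of 1 SE, crosses for the estimate with no length term). Per length Gria2 is highest, at 2.25, and Cacng7 lowest, at -1.43, whereas with no length term Gria3 (1.39) is highest and Cacng4 (-1.96) lowest.

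RNA levels differed between replicates 3 and 4 with the GC content of the transcripts over all genes. From replicate 3 to replicate 4 in basal RNA, genes were split by GC content into 5 bins of equal size, and the median differed by 0.61 on the log2 scale in the bin of lowest GC and by -0.52 in that of highest GC. Over the same libraries Gria2 (36.8% GC) differed by 0.95 and Cacng7 (58.1% GC) by -0.88. In basal, Gria1, Gria3 and Gria4 differed by 0.38, 0.68 and 0.61, against 0.31, 0.61 and 0.61 for the medians of their bins. Cacng8 (65.1% GC) differed by -0.49 in basal, near the -0.52 of its bin, and by -0.062 in DHPG libraries, where its bin had -0.36. Cacng5 (51.7% GC) differed by -0.86 and -1.25 in basal and DHPG libraries, in a bin at 0.0054 and -0.012. Cacng4 (54.4% GC) differed by 0.098 and 0.051, in a bin at -0.28 and -0.196. Cacng2 and Cacng3, in the bins of Cacng5 and Cacng4, differed by -0.29 and -0.72 in basal. In basal RPF the medians of the bins were -0.11 at the lowest and 0.13 at the highest GC. The part of this difference between libraries in the RNA levels and ratios of the members was not tested, and the DHPG comparison below was made within replicate numbers.

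**Figure D4:**
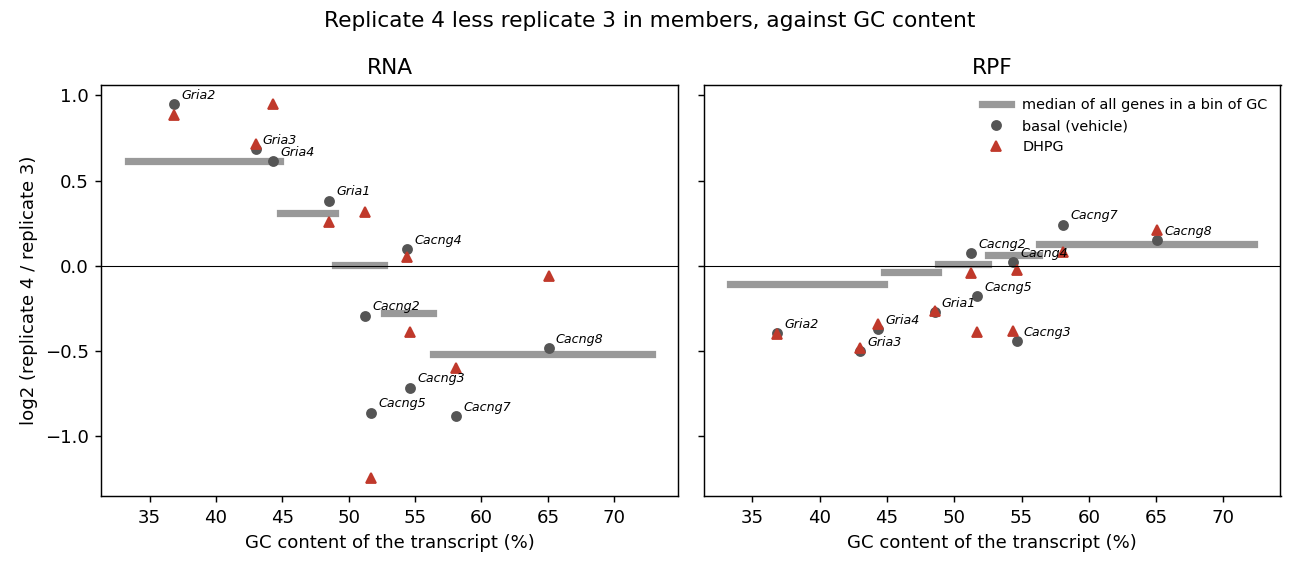
Log2 difference of replicate 4 from replicate 3 in each member, against the GC content of its transcript, for RNA (left) and RPF (right). Basal libraries are grey circles and DHPG libraries red triangles. Grey bars give the median of all genes in each bin of GC content in basal libraries only. In DHPG RNA these medians ran from 0.47 at the lowest to -0.36 at the highest GC. In basal RNA Gria2 lies at 0.95 and Cacng7 at -0.88, while Cacng5, of middling GC content, lies at -0.86.

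DHPG was then compared with basal within replicate numbers, which gives 4 pairs in RNA and 5 in RPF. The genes were selected on their RNA and RPF values in this comparison, that of Cacng7 above all, so the values are descriptions and carry no test. By edgeR, 0 of the 10 passed the adjusted threshold in RNA (adjusted p under 0.01; 0.00773% of all genes did), 0 in RPF (under 0.05; 0.22%) and 0 in the change of the RPF to RNA ratio (under 0.05; 0% of genes). At an unadjusted p of 0.05 there were 2 members in RNA, 3 in RPF and 2 in the ratio, where 8.02%, 10.8% and 6.54% of all genes stood. Because the members were selected on this comparison, these counts cannot be read as an excess over all genes. DESeq2 with the same block also called 0 members in RNA and in RPF. In each member the basal and DHPG libraries overlapped in both assays, against 0.51% of genes in RNA and 0.394% in RPF whose groups did not.

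Cacng7 RNA was at 93.1, 118, 129 and 69.7 CPM in basal replicates 1 to 4. In DHPG it was at 115, 168, 143, 93.9 and 75.8 CPM in replicates 1 to 5. The DHPG library was the higher of the pair in 4 of 4 replicates, yet the spread between replicates was larger than the difference and the groups overlapped. The log2 difference was 0.34 ± 0.076 (SE), with 0.30, 0.51, 0.15 and 0.43 in the pairs, and 8.67% of all genes were higher in every RNA pair. With the trend with GC content and length removed from each library, an alternative chosen after seeing the data, it was 0.30.

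Cacng7 footprints did not follow. They stood at 19.4, 23.8, 23.8, 28.1 and 26.3 CPM in basal replicates 1 to 5 and at 21.9, 25.4, 23.1, 24.4 and 22.0 CPM in DHPG. The DHPG library was higher in replicates 1 and 2 and lower in the other 3, and the log2 difference was -0.058 ± 0.062. The RPF to RNA ratio of Cacng7 accordingly differed by -0.40 ± 0.095 between DHPG and basal, and the ratio had been low in basal slices already. Replicate 5, which has no RNA pair, enters the RPF difference and the change of the ratio. Without replicate 5 they were -0.0097 and -0.35.

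The other TARPs are given beside it. In RNA, 6 of 6 TARPs had a log2 difference above 0 (median 0.17; median of all genes 0.0068), and 52.1% of all genes were above 0. The count does not hold under every alternative, as Cacng2 RNA was at -0.17 without replicate 4 and Cacng3 RNA at -0.024 with no replicate block. Cacng5 RNA differed by 0.41 ± 0.17 and was higher in 4 of 4 pairs, from 4.25, 5.77, 8.49 and 4.52 CPM in basal to 6.84, 7.83, 11.4, 4.64 and 6.89 CPM in DHPG. Counts of Cacng5 were low, and its RPF differed by only 0.069 ± 0.092. Cacng8 RNA differed by 0.14 ± 0.077, Cacng3 RNA by 0.058 ± 0.084 and Cacng2 RNA by 0.070 ± 0.14, the last higher in 2 of 4 pairs. The trend with GC content and length was removed here as well. The RNA differences were then 0.38 for Cacng5, 0.15 for Cacng4, 0.051 for Cacng8, 0.025 for Cacng3 and 0.024 for Cacng2.

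Cacng4 was the TARP with the largest difference in RPF. Its footprints stood at 5.74, 6.09, 5.18, 5.25 and 6.92 CPM in basal replicates 1 to 5, from 37 to 114 counts, and at 7.84, 8.52, 8.28, 6.31 and 7.46 CPM in DHPG, from 44 to 150 counts. DHPG was higher in 5 of 5 pairs, as for 5.16% of all genes, and the groups overlapped only through the basal library of replicate 5 and the DHPG library of replicate 4. The log2 difference was 0.43 ± 0.11 in RPF and 0.20 ± 0.10 in RNA. The RPF differences of the other TARPs were 0.078 ± 0.034 for Cacng8, 0.050 ± 0.055 for Cacng3 and 0.044 ± 0.071 for Cacng2. With the trend with GC content and length removed they were 0.030, 0.038 and 0.037, and that of Cacng4 was 0.42.

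The AMPA receptor subunits differed little. In RPF all 4 were slightly above 0 (as were 51.4% of all genes), at 0.039 ± 0.028 for Gria1, 0.037 ± 0.028 for Gria2, 0.060 ± 0.030 for Gria3 and 0.073 ± 0.040 for Gria4. Gria1 and Gria3 were higher in 5 of 5 pairs and Gria2 and Gria4 in 4 of 5. In RNA the differences ran from -0.096 ± 0.068 for Gria2 to 0.053 ± 0.072 for Gria3. The share of Gria2 in the subunit RPF was 46.0% ± 0.544 in basal and 45.8% ± 0.804 in DHPG slices, and that of Gria1 37.1% ± 1.199 and 37.0% ± 1.59.

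**Figure D5:**
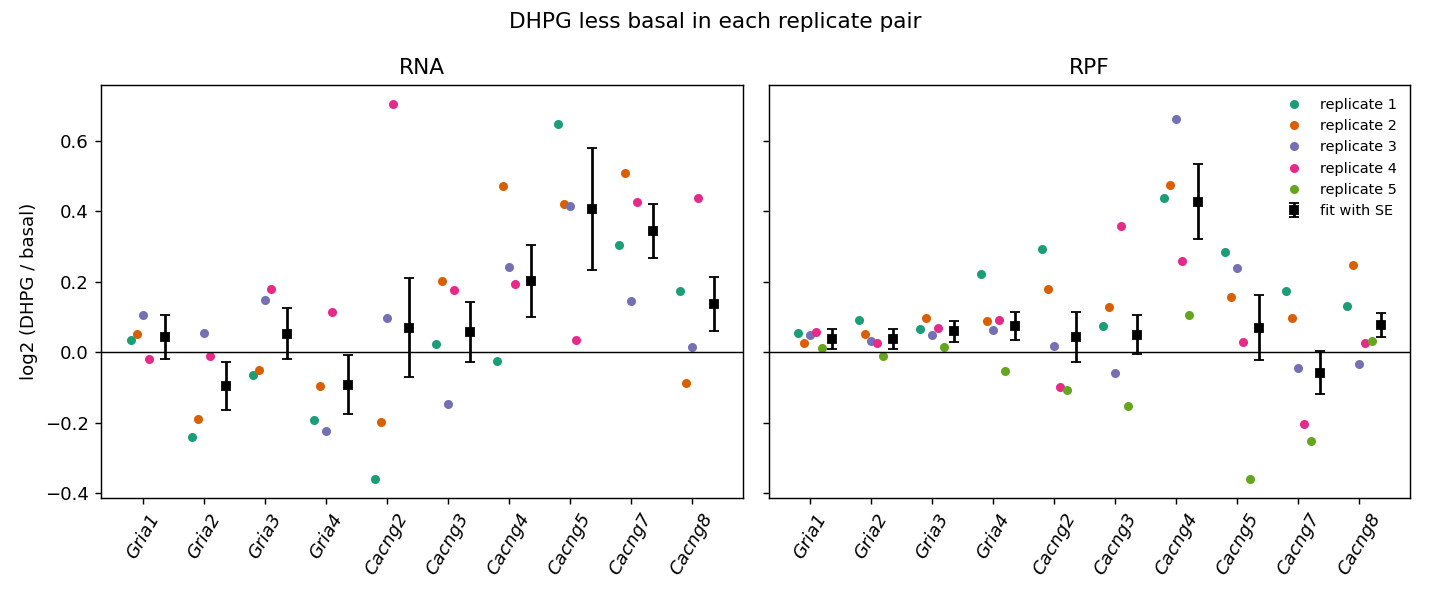
Log2 difference of DHPG from basal in each replicate pair for the 10 members, in RNA (left, 4 pairs) and RPF (right, 5 pairs), with black squares for the fitted difference and error bars of 1 SE. Cacng7 is above 0 in all 4 RNA pairs and on both sides of 0 in RPF, and Cacng4 is above 0 in all 5 RPF pairs.

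Markers of other cells and of neighbouring tissue moved in the same pairs. The summed level of 8 oligodendrocyte genes (none at 0) was higher with DHPG in 4 of 4 RNA pairs, by 0.11, 0.22, 0.10 and 0.19 on the log2 scale, and ran from 2497 to 5321 CPM in basal and from 2850 to 6081 CPM in DHPG. The summed level of 19 genes of a thalamus list (none at 0), several of which had been seen among the calls of these data, was higher in 4 of 4 RNA pairs by 0.15, 0.40, 0.28 and 0.29. It ran from 239.7 to 308.3 CPM in basal and from 275.1 to 376.6 CPM in DHPG. In RPF each of these lists was higher in 4 of 5 pairs. In RPF replicates 1 to 5 the oligodendrocyte list differed by 0.11, 0.20, 0.0093, 0.21 and -0.13. The thalamus list differed by 0.12, 0.28, 0.32, 0.23 and -0.18, and Cacng4 RPF by 0.44, 0.47, 0.66, 0.26 and 0.105. The part of either list in the differences of Cacng7 and Cacng4 was not tested. The astrocyte and microglia lists (8 genes each) were higher in 5 of 5 RPF pairs, and in 3 and 2 of 4 RNA pairs. The endothelial list was higher in 1 of 4 RNA and 3 of 5 RPF pairs, and the list of oligodendrocyte precursors in 3 and 4. Markers of CA1, CA3 and dentate neurons and of interneurons were detected in both groups, which fits the labelled tissue, and were higher with DHPG in 3, 2, 4 and 2 of 4 RNA pairs and in 3, 4, 2 and 4 of 5 RPF pairs. No gene of these lists was at 0, and their part in the values of the members was not tested.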

How the data were processed

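Each assay came as a table of RSEM's expected counts, which the authors had rounded and deposited after cutadapt trimming, Bowtie2 removal of unwanted reads and TopHat2 alignment to mm10. Together the tables hold 12 columns that belong to no sample used here and were left out. Library totals ran from 4870813 to 7793244 counts in RNA and from 5692064 to 22092434 in RPF, and SEs and SDs hold counting error as well as spread between libraries. Counts were analysed with edgeR 4.0.16 (quasi-likelihood F test, TMM, filterByExpr) in R 4.3.3 with the replicate number as a block, p-values being adjusted over all genes tested. The numbers were taken to pair the samples. Deviations of same-numbered libraries from their group means correlated at 0.308 to 0.741 in RNA and 0.259 to 0.523 in RPF. The source of that correlation was not tested. The basal RNA group has no replicate 5, so the DHPG library of that number adds nothing to the RNA difference. Changes of the RPF to RNA ratio were tested as an interaction over 19 libraries. Lengths came from GENCODE transcripts with the longest coding sequence on GRCm38 (mm10), matched for 95.05% of genes, with 60 nt taken from the coding length. The authors' annotation may have other transcript ends, which would change levels per kb. DESeq2 1.42.0 and ComBat of sva 3.50.0 served as alternatives, among them other lengths, no filter, no block and each replicate left out. The main edgeR comparisons were tested on simulated counts, the basal ratio with no length term only. Those counts had the same dispersion for all genes. Changes were planted only in genes with higher mean counts than Cacng5 RNA or Cacng4 RPF, so such sparse genes were not covered. The length terms, the removal of the GC trend, DESeq2 and ComBat were not tested in that way. The members, partner and marker lists were chosen with earlier results of these data known; the genes named are the members, the partners with the 3 largest differences in each direction in RPF, and the 5 genes most like Cacng7. Replicate numbers were taken as batches of pooled slices. With the replicate number as a block, level differences between batches are taken out, and p-values measure how the difference within a batch varies between batches.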

Additional observations from a re-analysis of the deposited data

Results flagged for a closer look

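In 60 groups of 4 or 5 libraries, each member was screened for a library far from the others of its group (Dixon's test at 95%), and 2 were found, where chance alone gives about 3.0. Cacng4 RNA in the DHPG library of replicate 5 was 6.29 CPM per kb, below the other 4 libraries at 7.94 to 8.44. That library has no basal partner and does not enter the paired RNA difference. The log2 RPF less RNA level of Cacng7 per kb in basal replicate 4 was 0.22, against -0.91 to -0.73 in replicates 1 to 3. This was screened before the values were set relative to the median gene of each replicate, and on that relative scale the same library (-0.62 against -1.79 to -1.57) no longer passes the test.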

How the results depend on the processing

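The counts of genes past the threshold were the values most open to the processing. In RNA 1 gene passed, against 7 with no filter on low counts, 0 with no replicate block, 0 with DESeq2 and the block, 100 (63 higher, 37 lower) with ComBat followed by DESeq2, and 0 to 22 with 1 replicate left out, the 22 without replicate 2. In RPF 29 passed, against 96 with no filter, 0 with no replicate block, 427 (285 higher, 142 lower) with ComBat followed by DESeq2, and 3 to 71 with 1 replicate left out, the 3 without replicate 2 and the 71 without replicate 3. For the change of the ratio the count was 0, 6 with no filter and 0 to 8 with 1 replicate left out. Among members, Cacng7 RNA passed with ComBat followed by DESeq2, Gria3 RPF passed there too, Cacng4 RPF passed with no filter and without replicate 5, and the Cacng7 ratio passed with no filter. The log2 difference of Cacng7 kept its sign in 11 of 11 alternatives in RNA (0.22 to 0.41), 11 of 11 in RPF (-0.11 to -0.0097) and 8 of 8 in the ratio (-0.49 to -0.27). The basal ratio turned in sign for Cacng3 with no length term (-0.33) and for Cacng8 with median lengths (-0.13) and without replicate 4 (-0.078, and 0.14 at most with another replicate left out), Cacng8 being at 0.43 with no length term. Cacng3 missed its threshold with no replicate block and in each set with 1 replicate left out, and Gria4 without replicate 2 or 3. Median lengths put the RNA shares of Gria1, Gria2 and Cacng8 at 58.0%, 23.3% and 64.0%. The causes were not tested. No other call changed with the block. The sign of the DHPG difference also turned in 1 of 11 alternatives each for Gria2, Cacng2 and Cacng3 in RNA and for Cacng2, Cacng3 and Cacng5 in RPF. Counts were low for Cacng5 RNA and Cacng4 RPF.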

Other observations

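A list of 45 genes whose products assemble, move or anchor AMPA receptors was examined beside the members, and 44 were tested (Epb41l1 was not matched under its symbol). None passed the threshold in RNA, in RPF or in the change of the ratio. In RNA 32 of 44 had a log2 difference above 0 (median 0.039) and in RPF 23 of 44 (median 0.0096), where 52.1% and 51.4% of all genes did. The largest RPF differences above 0 were those of Shisa8 (0.25 ± 0.18, SE), an auxiliary subunit of the CKAMP group, the neuronal pentraxin Nptx2 (0.16 ± 0.049) and the pentraxin receptor Nptxr (0.14 ± 0.036), which lies at the Npcd locus, where the split of reads between genes is uncertain. The largest below 0 were those of the kinase anchor Akap5 (-0.12 ± 0.041) and the scaffolds Dlg3 (-0.11 ± 0.033) and Dlg1 (-0.085 ± 0.038). The adjusted p of these genes in edgeR was 0.083 or more.

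The 5 genes whose levels over the 19 libraries were most like those of Cacng7 were Desi1, Wdtc1, Ranbp10, Ctdnep1 and Trp53inp2. Their root mean square difference from Cacng7, in log2 CPM centred within each assay, was 0.11 to 0.14, against 0.34 for the median of 12691 genes. Their transcripts held 52.0 to 59.4% GC, and that of Cacng7 58.1%.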
